A study of Mus musculus with 6 samples.

Results

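Cathepsins are the proteases of the lysosome. Transcripts of 10 of them were followed here in RNA sequencing of mouse inguinal white adipose tissue, the fat pad under the skin of the groin, from mice labelled wild type (WT) and Hsp20 knockout (Hsp20 KO). The members are the aspartic proteases Ctse and Ctsd, the serine carboxypeptidase Ctsa and the cysteine proteases Ctsb, Ctsc, Ctsh, Ctsk, Ctsl, Ctss and Ctsz. They were taken by gene ID from the 24415 IDs of the deposited count table. All 10 were found, and all 10 passed the filter on low counts that left 15994 genes to test. Each group held 3 mice with 1 library each. Both groups were 12 weeks old, had the C57BL/6 background and were not fasted. How the Hsp20 allele was made, and in which cells it is lacking, the sources used here do not say. The members were chosen by family, with the counts of Ctse in these libraries and their genotype difference known. Its genotype difference and those of its family are therefore given as a description, without a test of their own. Counts of members past a threshold come from the fits over all genes, and nothing is read from them. P-values are printed only for genes other than these 10.

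Most cathepsins are made as inactive proenzymes, carried to late endosomes and lysosomes by mannose 6-phosphate receptors and activated there by the acid pH. In the lysosome they break down proteins delivered by endocytosis and autophagy. Cathepsin D, B and L are found in nearly all cells, cathepsin S and H are prominent in antigen-presenting cells, and cathepsin K is the collagen-degrading enzyme of osteoclasts and is also made by fibroblasts. Cathepsin E resembles cathepsin D in sequence but lies largely in endosomes and the endoplasmic reticulum, and it is known from gastric epithelium, immune cells and erythrocytes.

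Library totals ran from 14078936 to 32648746 counts. Hspb6, which encodes Hsp20, had 325, 289 and 296 counts in WT replicates 1 to 3 and 245, 33 and 53 in the libraries labelled Hsp20 KO replicates 1 to 3. The library labelled replicate 1 thus held Hspb6 at 8.86 CPM (counts scaled to a common library size after TMM adjustment), beside 8.95 in the lowest WT library. Between the groups Hspb6 differed by a log2 change of -1.08 (adjusted p = 0.227, edgeR), and by -1.99 without that library (0.0221). In Hspb6 the library labelled replicate 1 thus lay close to WT, though below every WT library, and why was not tested. The cathepsins and some of the lists are also given without it. The libraries labelled Hsp20 KO are also called KO-labelled here. Markers of fat cells were abundant in every library, with summed levels of 8 adipocyte genes between 11880 and 17364 CPM.

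Ctse (gene ID 13034, GRCm38 chr1:131638314-131675507, plus strand) was scarce in WT fat and higher in all 3 libraries labelled Hsp20 KO, on average about 20 times. It had 53, 87 and 70 counts in WT replicates 1 to 3 and 1522, 855 and 626 in the libraries labelled Hsp20 KO replicates 1 to 3. As CPM these were 2.06, 2.84 and 2.12 against 55.0, 39.2 and 46.5. The lowest library labelled knockout lay more than 10-fold above the highest WT library, and the spread within each group was small beside the distance between them. Means were 2.34 ± 0.435 CPM in WT and 46.9 ± 7.94 CPM in the KO-labelled libraries (SD, n = 3 each), a ratio of 20.1 and a log2 change of 4.32 ± 0.18 (SE). Among the 15994 genes tested, this log2 change was number 7 from the highest. The library labelled replicate 1, whose Hspb6 level lay close to WT, had the highest Ctse level of the 6, and the log2 change without it was 4.19.

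**Figure D1:**
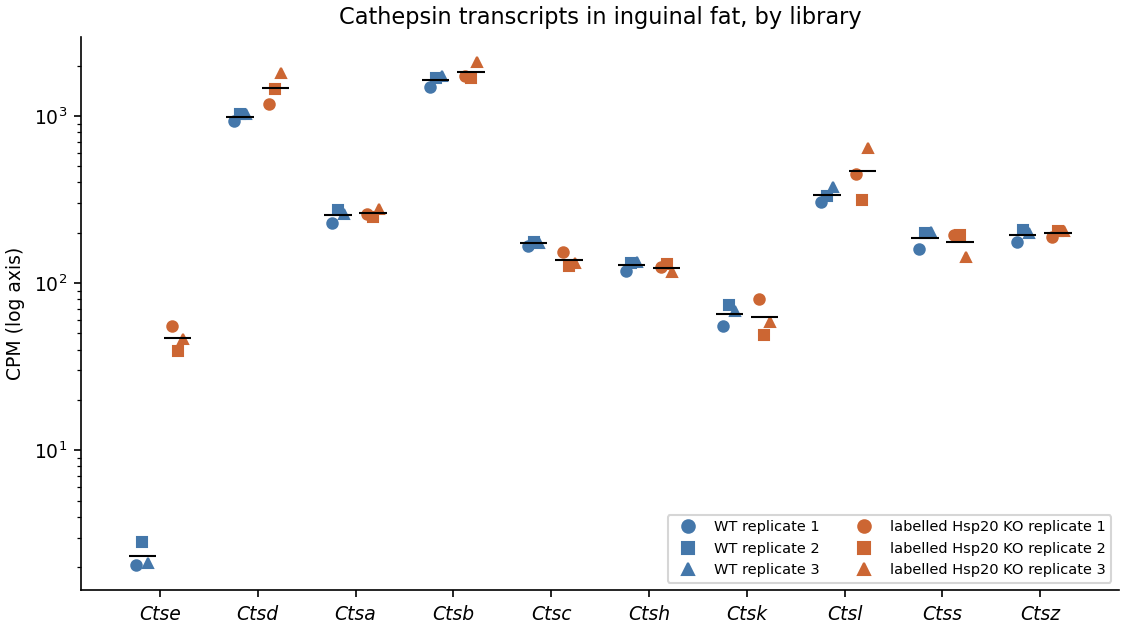
CPM of the 10 cathepsins on a log axis in each of the 6 libraries, with WT in blue, libraries labelled Hsp20 KO in orange, replicate numbers as symbols and group means as lines. Ctse lies between 2.06 and 2.84 CPM in WT and between 39.2 and 55.0 CPM in the KO-labelled libraries, and the groups of the other cathepsins lie close together or overlap.

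The order of the libraries differed between Ctse and several genes of thermogenic fat. On the log2 CPM scale, Ctse lay 4.53, 4.04 and 4.28 above the WT mean in the libraries labelled Hsp20 KO replicates 1 to 3. Ucp1, the uncoupling protein of brown and beige fat, lay 3.43, 6.53 and 7.43 above it. Ctse was thus highest, and Ucp1 lowest, in the library labelled replicate 1. Cidea, a lipid droplet protein of brown fat, lay 1.72, 2.90 and 2.76 above the WT mean. Cpt1b, which admits fatty acids to mitochondria, lay 1.83, 3.65 and 3.51 above it. Elovl3, which lengthens fatty acids in thermogenic fat, was like Ctse in that the library labelled replicate 1 was not the lowest (4.80, 4.43 and 5.18). Dio2, also among the thermogenic genes listed, shared this, at 1.16, 1.22 and 1.08 above the WT mean. In Cox7a1, Cox8b and Ppargc1a that library was the lowest of the KO-labelled ones. Of the 8 thermogenic genes listed, 7 were higher at an adjusted p under 0.05 and 0 were lower (edgeR quasi-likelihood, Benjamini-Hochberg), also without the library labelled Hsp20 KO replicate 1. Without WT replicate 2 or 3, 2 of the 8 were called in each case. Their summed level was 74.7 to 105 CPM in WT and 234 to 800 CPM in the KO-labelled libraries. Their part in the Ctse level was not tested.

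**Figure D2:**
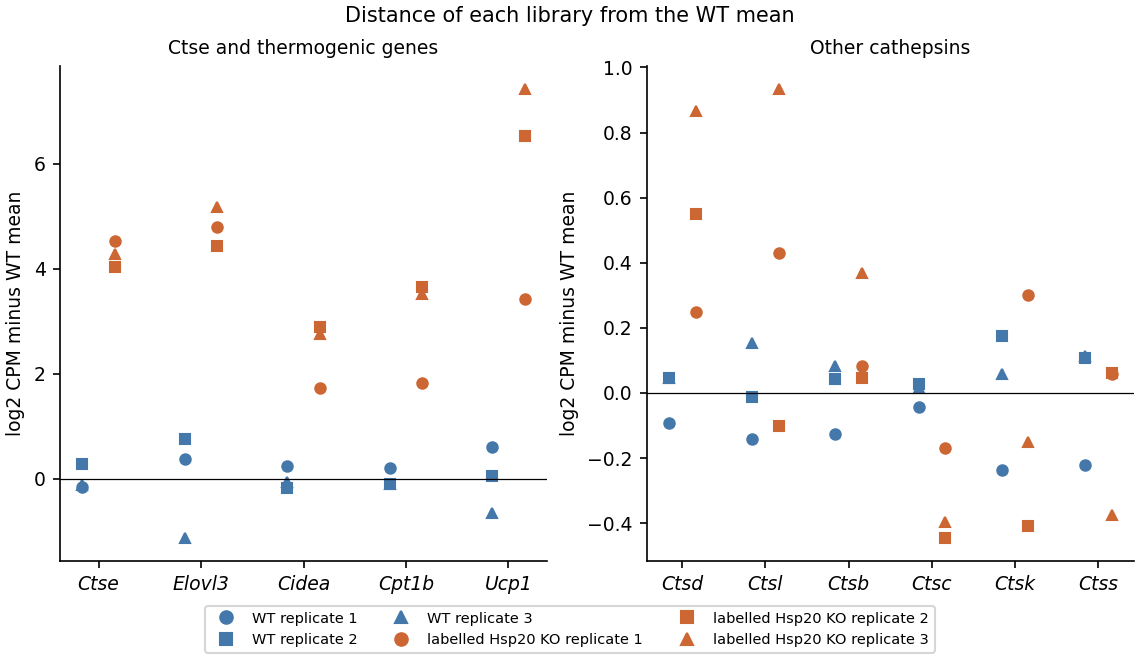
Distance of each library from the WT mean in log2 CPM (symbols and colours by replicate number and group), for Ctse beside 4 thermogenic genes (left) and for 6 other cathepsins (right). The library labelled Hsp20 KO replicate 1 is highest for Ctse, at 4.53, and lowest of its group for Ucp1, at 3.43, and for Ctsd, at 0.25.

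Markers of cell types known to make cathepsin E, from stomach, other epithelia, blood and immune cells, were measured beside it. Of 7 gastric genes, Tff2, Gkn1 and Gkn2 had no count in any library, and 6 stayed under 1 CPM throughout. Their summed level was 0.131 to 0.302 CPM in WT and 0.891 to 2.20 CPM in the KO-labelled libraries, mostly Atp4b and Atp4a, the subunits of the gastric proton pump. Atp4b rose from 0.103 ± 0.0633 to 0.891 ± 0.497 CPM (SD, n = 3 each; edgeR adjusted p = 0.0271), with 4, 1 and 4 counts against 17, 32 and 8. That call ended without any WT library or the KO-labelled replicate 2 and with the replicate block (adjusted p from 0.0584 to 0.111). The part of such cells in the Ctse level was not tested. Of the 6 epithelial markers 5 were tested and 0 were called (edgeR; 0 also at an unadjusted p under 0.05 and 0 by DESeq2 or limma-voom), at 6.72 to 8.25 CPM in sum in WT and 4.21 to 8.42 in the KO-labelled libraries. Without the library labelled Hsp20 KO replicate 1, 1 epithelial marker (Krt19) was called lower. The 6 erythroid transcripts summed to 5843 to 6729 CPM in WT and 2618 to 3172 CPM in the KO-labelled libraries, opposite to Ctse, and 4 of them fell (5 without the library labelled Hsp20 KO replicate 1). The 8 dendritic cell markers overlapped between the groups, at 161 to 183 and 129 to 185 CPM, with 1 lower (Cd209a, a call that ended without WT replicate 2 or 3 or the KO-labelled replicate 2 or 3, and with the replicate block) and 0 higher. The 6 B cell markers summed to 705 to 742 CPM in WT and to 462 to 930 CPM in the KO-labelled libraries, with 0 called (edgeR; 0 at an unadjusted p under 0.05, 0 by DESeq2 and 0 by limma-voom). The KO-labelled replicate 2 held the highest B cell sum, and without it all 6 were called lower. The 9 T and NK cell markers summed to 229 to 275 CPM in WT and 231 to 345 CPM in the KO-labelled libraries. Of these 7 had a positive log2 change and 0 were called higher, while Nkg7 and Klrb1c, genes of NK cells, fell (edgeR adjusted p = 0.0342 and 0.0226). Without WT replicate 2 or 3 or the KO-labelled replicate 2, 0 of the 9 were called, and without the KO-labelled replicate 3, 2 were called higher (Cd3e and Ncr1) and 1 lower. The 7 mast cell markers summed to 112 to 124 CPM in WT and 77.6 to 137 CPM in the KO-labelled libraries. Of these 1 fell, Hdc, which makes histamine (edgeR adjusted p = 0.0177), and 4 were called lower without the library labelled Hsp20 KO replicate 1. The Hdc call ended without WT replicate 2 or 3 or the KO-labelled replicate 2 (adjusted p from 0.0516 to 0.0765). Here and below, fewer cells of a type and less RNA per cell cannot be told apart in whole tissue.

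Genes on either side of Ctse did not share its size of change. The count table held 9 genes within 250 kb, a window chosen after the values of Ctse were known, and 7 of them were tested. Rab7b, a small GTPase of late endosomes and lysosomes, starts 13.2 kb beyond the end of Ctse. It had 29.0, 37.7 and 39.2 CPM in WT and 16.6, 15.6 and 14.4 CPM in the KO-labelled libraries, without overlap. It fell by 1.18 ± 0.13 (SE) on the log2 scale (edgeR adjusted p = 0.00516) and remained past the threshold in all 13 alternative analyses (adjusted p from 5.73e-12 to 0.0367). Pm20d1, an enzyme that makes N-acyl amino acids and is secreted by thermogenic fat cells, starts 122 kb beyond Ctse. It had 3.53, 2.15 and 3.57 CPM in WT and 9.25, 9.02 and 14.6 CPM in the KO-labelled libraries. It rose by 1.82 ± 0.27 (SE) on the log2 scale (edgeR adjusted p = 0.0125), a call that ended without WT replicate 2 (adjusted p = 0.0548) or 3 (0.0545). The other 5 tested genes, Srgap2, Fam72a, Slc41a1, Rab29 and Nucks1, had log2 changes from -0.13 to 0.32 and were not called by edgeR. Slc41a1, a magnesium transporter, had the 0.32 (edgeR adjusted p = 0.0816). It was called by DESeq2 (adjusted p = 0.0486) and by edgeR without the library labelled Hsp20 KO replicate 1 (log2 change 0.41, adjusted p = 0.0216). Avpr1b and Slc26a9 had at most 3 counts in a library. Over all genes tested, 7.65% were called.

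**Figure D3:**
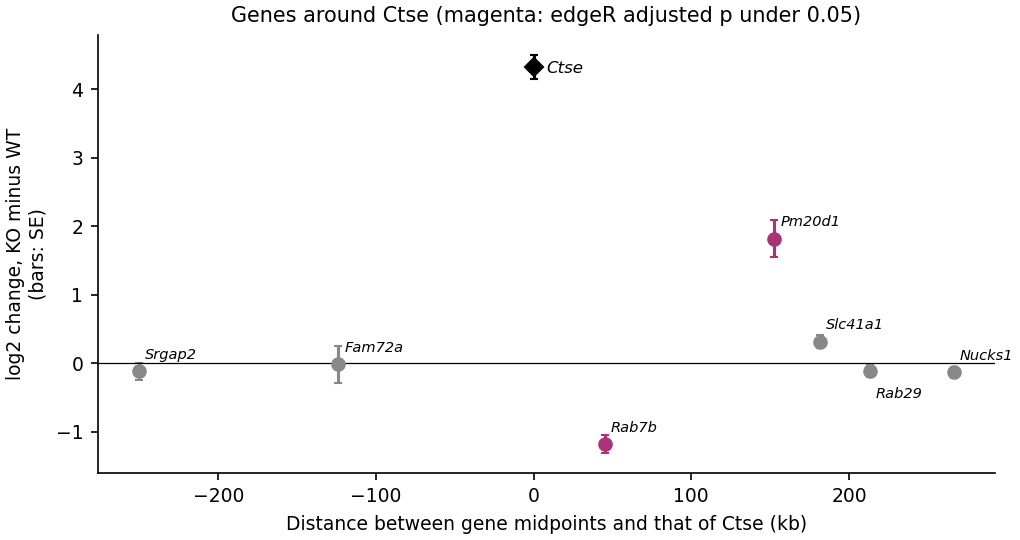
Log2 change between genotypes, libraries labelled Hsp20 KO minus WT, with SE bars, against distance from the midpoint of Ctse in kb, for Ctse (black) and the 7 tested genes within 250 kb. Ctse stands at 4.32, Rab7b at -1.18 and Pm20d1 at 1.82 (both magenta, edgeR adjusted p under 0.05), and the rest lie between -0.13 and 0.32.

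By the Pearson correlation of log2 CPM over the 6 libraries, the genes most like Ctse among 14642 compared were As3mt, an arsenic methyltransferase (r = 0.997), Tmem181c-ps (0.994), Ciart, a repressor of the circadian clock (0.994), Efcab7 (0.993) and Atp5k, a subunit of ATP synthase (0.993). Their libraries fell into the same 2 groups as those of Ctse, and the 6 points share depth and genotype, so these r values are a description. As3mt held 10.9, 11.1 and 10.04 CPM in WT and 22.7, 21.5 and 22.4 CPM in the KO-labelled libraries. After the group means were subtracted, none of these 5 was among the 5 genes most like Ctse.

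Of the 10 members, 1 was called higher (Ctse) and 0 lower, beside 4.23% of all tested genes called higher, 3.42% lower and 7.65% in all, and nothing is read from that count, since the genotype difference had a part in the choice. The log2 changes of the other 9 ran from -0.33 to 0.57 with a median of 0.04, beside a median of 0.00061 over all genes tested. None of the 9 was past the threshold in edgeR, 2 had an unadjusted p under 0.05, and DESeq2 and limma-voom called 2 and 0. The libraries of the groups did not overlap for 3 of the 10 members (Ctse and Ctsd above, Ctsc below), beside 32.5% of all genes tested. Without the library labelled Hsp20 KO replicate 1, the log2 changes were 4.19 for Ctse, 0.72 for Ctsd, 0.50 for Ctsl, 0.21 for Ctsb, 0.077 for Ctsz, 0.056 for Ctsa, -0.057 for Ctsh, -0.15 for Ctss, -0.29 for Ctsk and -0.42 for Ctsc.

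**Figure D4:**
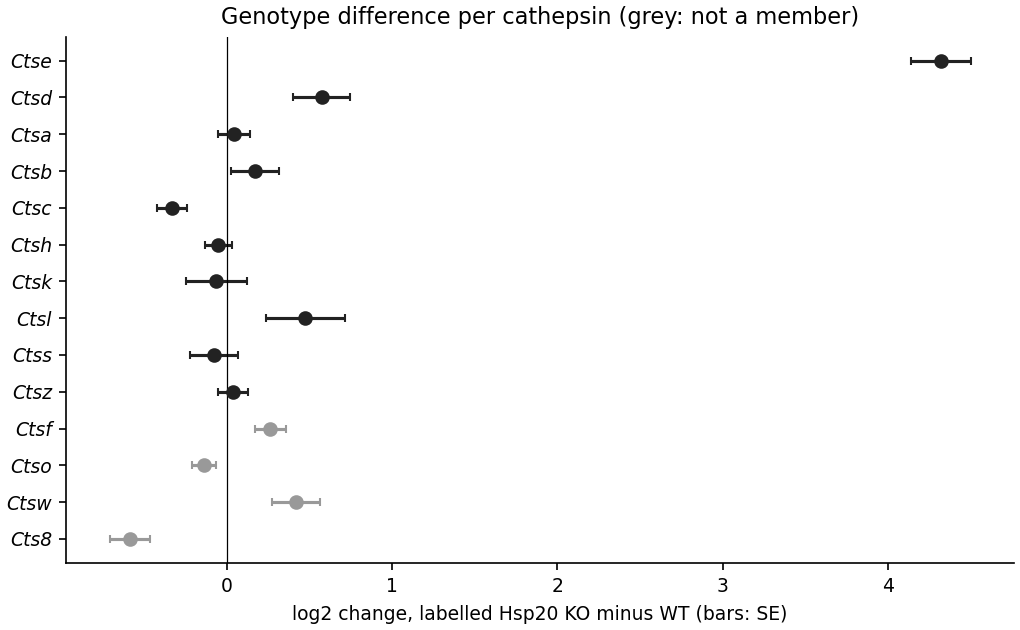
Log2 change, libraries labelled Hsp20 KO minus WT, with SE bars, for the 10 members (black) and the 4 further cathepsins that could be tested (grey). Ctse stands at 4.32, the other members lie between -0.33 and 0.57, and Cts8 is lowest at -0.59.

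Ctsd, the other aspartic cathepsin and the main acid endopeptidase of lysosomes (gene ID 13033, GRCm38 chr7:142375910-142387827, minus strand), was higher in all libraries labelled knockout. It had 927, 1020.4 and 1019.4 CPM in WT and 1173, 1445 and 1800 CPM in the libraries labelled Hsp20 KO replicates 1 to 3. The groups did not overlap, and the library labelled replicate 1 lay nearest to WT. Means were 989 ± 53.7 and 1473 ± 314 CPM (SD, n = 3 each), with a log2 change of 0.57 ± 0.17 (SE), or 0.72 without the library labelled replicate 1. Ctsd followed the summed thermogenic markers (r = 0.94 over the 6 libraries, 0.78 after subtracting the group means), a description over points that share genotype and depth. After that subtraction r was also positive for adipocyte (0.73) and osteoclast (0.62) markers, and negative for all other marker lists. Ctsd lies 112 Mb from Hspb6 on the same chromosome.

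Outside the family, the aspartic proteases of the pepsin group had 3 tested genes and 0 calls (edgeR; 1 lower at an unadjusted p under 0.05, 1 call by DESeq2 and 0 by limma-voom). Napsa, the gene of napsin A, had 48.4 ± 6.35 CPM in WT and 29.7 ± 11.6 CPM in the KO-labelled libraries (log2 change -0.70 ± 0.25 SE, edgeR adjusted p = 0.127). The beta-secretases Bace1 and Bace2 had log2 changes of 0.010 and -0.17 (edgeR adjusted p = 0.960 and 0.380).

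Ctsa, the carboxypeptidase that also protects beta-galactosidase and neuraminidase in a complex (gene ID 19025, GRCm38 chr2:164832872-164841032, plus strand), overlapped between the groups. It had 230, 272 and 259 CPM in WT and 258, 248 and 279 CPM in the KO-labelled libraries, a log2 change of 0.045 ± 0.098 (SE). Its partners Glb1 and Neu1 had log2 changes of -0.029 ± 0.16 and -0.040 ± 0.093 (edgeR adjusted p = 0.924 and 0.824). The annotated span of Ctsa overlaps those of Neurl2 and Pltp, and with the strand setting not given, reads in the overlap cannot be assigned to either gene.

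RefSeq promoter windows (GRCm38.p6, 250 bases before to 50 after a start) were matched for 7 of the 10 members, and those of Ctse, Ctsb and Ctsh were not used here. The transcription factor TFEB and its relatives bind a palindromic site with the core TCACGTGA in many lysosomal promoters. Stretches are shown for the members with that core, Ctsa and Ctsd. Both strands were searched. The 6-letter E-box CACGTG, which lies inside that core, occurred in windows of 3 of the 7 members (Ctsa, Ctsd and Ctsl) and in 7.15% of all 32851 windows. The longer TCACGTGA occurred for 2 of the 7, Ctsa and Ctsd, and in 0.974% of all windows. Counted by window, CACGTG occurred in 3 and TCACGTGA in 2 of the 8 windows of these members. Ctsa had a pair of windows, and its other window held neither. In the stretches below CACGTG is in capitals. That of Ctsd (chr7:142387828-142388077, minus strand) ends at the base before the start, and that of Ctsa (chr2:164833653-164833787, plus strand, at one of its pair of starts) ends 15 bases after it.
Ctsd: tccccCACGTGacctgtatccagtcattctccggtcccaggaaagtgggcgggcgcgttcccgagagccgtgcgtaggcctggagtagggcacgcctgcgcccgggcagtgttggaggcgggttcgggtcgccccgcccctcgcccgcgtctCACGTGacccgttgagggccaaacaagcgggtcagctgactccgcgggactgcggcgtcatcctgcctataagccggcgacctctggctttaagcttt
Ctsa: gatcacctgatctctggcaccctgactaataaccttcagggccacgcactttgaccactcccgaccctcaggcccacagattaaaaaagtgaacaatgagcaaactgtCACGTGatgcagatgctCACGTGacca

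The E-box lay 245 and 98 bases before the start in Ctsd. In Ctsa 1 E-box lay 12 bases before the start and another just after it. These matches describe letters and not sites in use. Ctsd and Ctsa, which share them, had log2 changes of 0.57 and 0.045, and Ctsl, with CACGTG but not the longer core, had 0.48. Among 6 genes of the MiT/TFE factors and their control, Tfeb, Tfe3, Mitf and Tfec had log2 changes of 0.11, -0.033, -0.17 and -0.36 and were not called. Flcn, folliculin, a regulator of Rag GTPases and TFE3, was the only call, at 60.4 ± 2.59 CPM in WT and 75.1 ± 3.86 CPM in the KO-labelled libraries (edgeR adjusted p = 0.0462). That call ended without any single library (adjusted p from 0.0612 to 0.179), without the filter (0.0595) and with the replicate block (0.0846).

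Ctsl and Ctsb are endopeptidases of the papain family, and both were highest in the library labelled Hsp20 KO replicate 3. Ctsl (gene ID 13039, GRCm38 chr13:64361890-64370772, minus strand) had 304, 333 and 373 CPM in WT and 452, 312 and 641 CPM in the libraries labelled Hsp20 KO replicates 1 to 3. Replicate 2 lay inside the WT range and replicate 3 well above it. The coefficient of variation was 10.4% in WT and 35.2% in the KO-labelled libraries, and the log2 change was 0.48 ± 0.24 (SE). Ctsb (gene ID 13030, GRCm38 chr14:63122462-63145923, plus strand) had 1495, 1679 and 1725 CPM in WT and 1724, 1682 and 2103 CPM in the KO-labelled libraries. Only replicate 3 stood above WT, and the log2 change was 0.17 ± 0.14 (SE). The end of Ctsb overlaps Fdft1, squalene synthase, which rose by 0.66 ± 0.081 (SE) on the log2 scale (edgeR adjusted p = 0.00716), and reads in the overlap may count for either. Ctsb followed Ctsl (r = 0.91 over the 6 libraries) and the summed adipocyte markers (r = 0.89), both as a description.

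Ctss and Ctsk are neighbours on chromosome 3, with 17.4 kb between them, and did not share a pattern. Ctss, the endopeptidase that trims the invariant chain of MHC class II (gene ID 13040, GRCm38 chr3:95526786-95556405, plus strand), had 160, 200.4 and 201 CPM in WT and 193.7, 193.9 and 143 CPM in the KO-labelled libraries. WT replicate 1 and the library labelled Hsp20 KO replicate 3 were both low, the groups overlapped, and the log2 change was -0.079 ± 0.15 (SE). The gene most like it over the 6 libraries was Lyz2, lysozyme of macrophages and other myeloid cells (r = 0.995), and Lyz2 stayed closest after subtracting the group means (r = 0.998). Lyz2 had 558, 666 and 667 CPM in WT and 662, 665 and 511 CPM in the KO-labelled libraries, low in the same libraries as Ctss. Lyz2 is among the 14 macrophage markers listed, whose sum followed Ctss less closely (r = 0.58, and 0.61 after subtracting the group means). After that subtraction r with Ctss was 0.88 for T and NK cell, 0.86 for erythroid and 0.80 for dendritic cell markers. It was negative for osteoclast, adipocyte and thermogenic markers. The part of any of these cells in the Ctss level was not tested. The promoter of Ctss holds GAAA, any pair of bases and GAAA again, a motif bound by interferon regulatory factors (both strands searched), which occurred in 1 of the 7 members and in 3.44% of all windows. It is in capitals in the 120 bases before the start (chr3:95526666-95526785, plus strand), shown as the only match among the members.
Ctss: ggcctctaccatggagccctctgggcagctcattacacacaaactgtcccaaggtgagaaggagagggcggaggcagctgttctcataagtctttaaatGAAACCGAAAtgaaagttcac

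Ctsk (gene ID 13038, GRCm38 chr3:95499210-95509387, plus strand) had 55.4, 73.7 and 68.0 CPM in WT and 80.3, 49.2 and 58.8 CPM in the KO-labelled libraries, so that the highest and the lowest library both belonged to that group. The log2 change was -0.064 ± 0.19 (SE), and its sign turned without WT replicate 2 or the library labelled Hsp20 KO replicate 2 (0.026 and 0.087). Genes most like Ctsk were Selenop, a secreted selenium carrier (r = 0.995), and, after subtracting the group means, Sfrp4, a secreted modulator of Wnt signalling (r = 0.998). The 7 fibroblast and progenitor markers were also highest in the library labelled replicate 1 and lowest in replicate 2 (9629, 5277 and 7140 CPM in sum, beside 6333 to 7396 in WT; r with Ctsk = 0.77). The mast cell markers shared this order (137, 77.6 and 92.7 CPM in sum; r with Ctsk = 0.86). After subtracting the group means, r with Ctsk was 0.81 for the fibroblast and progenitor sum, 0.88 for mast cell and 0.90 for macrophage markers. For erythroid and epithelial markers r was likewise high, at 0.81 and 0.80. It was negative for dendritic cell, B cell, gastric and thermogenic markers. Of 6 osteoclast genes, 4 stayed under 1 CPM in all libraries (Oscar, Ocstamp, Dcstamp and Calcr). The sum of the list, 363 to 407 CPM in WT and 284 to 392 CPM in the KO-labelled libraries, came mostly from Acp5, tartrate-resistant acid phosphatase, which macrophages also make. The gelatinase Mmp9, also made by neutrophils, fell from 48.5 ± 5.15 to 18.2 ± 5.03 CPM (edgeR adjusted p = 0.0103), a call that ended without WT replicate 2 (0.0565). The part of these cells in the Ctsk level was not tested.

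Ctsc, Ctsh and Ctsz are exopeptidases. Ctsc, the dipeptidyl peptidase that activates serine proteases of immune granules (gene ID 13032, GRCm38 chr7:88278024-88315861, plus strand), was the 1 member that lay lower in all libraries labelled knockout. It had 167, 176 and 175 CPM in WT and 154, 127 and 131 CPM in the libraries labelled Hsp20 KO replicates 1 to 3, with the library labelled replicate 1 nearest to WT. Means were 173 ± 4.64 and 137 ± 14.4 CPM (SD, n = 3 each), with a log2 change of -0.33 ± 0.092 (SE), or -0.42 without the library labelled replicate 1. Ctsc lies 57.7 Mb from Hspb6.

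Macrophage markers moved with Ctsc, and they were not alone in this. The 14 markers summed to 2057 to 2351 CPM in WT and to 2160, 1705 and 1703 CPM in the KO-labelled libraries, with overlap (r with Ctsc = 0.94 over the 6 libraries and 0.95 after subtracting the group means). All 14 had a negative log2 change, 0 were called (edgeR; 7 lower at an unadjusted p under 0.05, 5 called by DESeq2 and 0 by limma-voom). Without the library labelled Hsp20 KO replicate 1, 7 of the 14 were called lower, and 1 without the KO-labelled replicate 2. Among the other lists, r with Ctsc after subtracting the group means was 0.96 for mast cell, 0.93 for epithelial and 0.88 for fibroblast and progenitor markers. Over the 6 libraries these were 0.78, 0.84 and 0.28. Erythroid markers had 0.94 over the 6 libraries and 0.80 after subtracting the group means. Dendritic cell, B cell, gastric, adipocyte and thermogenic markers had a negative r after it. The part of any of these in the Ctsc level was not tested. The summed thermogenic markers ran opposite to Ctsc (r = -0.99).

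Ctsh, an aminopeptidase (gene ID 13036, GRCm38 chr9:90054267-90076095, plus strand), had 118, 132 and 134 CPM in WT and 125, 129 and 117 CPM in the KO-labelled libraries, a log2 change of -0.051 ± 0.082 (SE). Ctsz, a carboxypeptidase also called cathepsin X (gene ID 64138, GRCm38 chr2:174427494-174439039, minus strand), had 175, 207 and 200.002 CPM in WT and 188, 204 and 205 CPM in the KO-labelled libraries, a log2 change of 0.036 ± 0.091 (SE). Both overlapped between groups, and Ctsz had the smallest absolute log2 change of the 10. Ctsh moved with Ctss across libraries (r = 0.94 over the 6).

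Since CPM grows with transcript length, levels were compared between members as CPM per kilobase of the longest transcript paired with RefSeq. In WT, Ctsd was highest at 465 ± 25.2 and Ctsb next at 344 ± 25.7 CPM per kilobase, followed by Ctsl (171 ± 17.7), Ctss (138 ± 17.6), Ctsz (135 ± 11.6), Ctsh (79.2 ± 5.28), Ctsa (69.6 ± 5.95), Ctsc (53.7 ± 1.44), Ctsk (43.5 ± 6.204) and Ctse (1.10 ± 0.205; SD, n = 3). Libraries of Ctss and Ctsz overlapped, as did those of Ctsh and Ctsa, and the other neighbours in this order were apart. In the KO-labelled libraries Ctse was still last, at 22.1 ± 3.74, below Ctsk at 41.5 ± 10.5 and Ctsc at 42.6 ± 4.47 CPM per kilobase. Ctsd was 359 to 481 times as high as Ctse per kilobase in the WT libraries and 21.3 to 38.7 times as high in those labelled knockout. The share of Ctse in the summed level of the 10 per kilobase was 0.0633% to 0.0859% in WT and 1.03% to 1.53% in the KO-labelled libraries.

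Cathepsins outside the chosen 10 made up a list of 13, of which 4 passed the filter. Ctsf had 41.8 ± 3.34 and 50.3 ± 3.88 CPM (WT, then labelled knockout; log2 change 0.26 ± 0.092 SE, edgeR adjusted p = 0.124). Ctso had 75.9 ± 1.17 and 69.0 ± 4.45 CPM (-0.14 ± 0.074, edgeR adjusted p = 0.291). Ctsw, a cathepsin of cytotoxic lymphocytes, had 19.8 ± 1.20 and 26.3 ± 5.18 CPM (0.42 ± 0.14, edgeR adjusted p = 0.122). Cts8 fell from 10.5 ± 0.511 to 6.96 ± 0.618 CPM (-0.59 ± 0.12, edgeR adjusted p = 0.0317). Cts8 belongs to a chromosome 13 cluster of related placental cathepsins. Whether its counts hold reads of other genes of the cluster was not tested, and they are uncertain. Its call ended without any WT library, without the KO-labelled replicate 2 or 3 and with the replicate block (adjusted p from 0.0685 to 0.135). Of the 9 untested, 5 had no count in any library.

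Inhibitors and the delivery route of the cathepsins gave 0 calls, beside 7.65% of all genes tested. With so few genes tested, nothing is read from that count. Of 18 cystatins and related inhibitors 4 were tested and 0 were called (edgeR; 0 at an unadjusted p under 0.05, 0 by DESeq2 and 0 by limma-voom). Their log2 changes ran from -0.13 to 0.78, the highest being that of Cst6, at 0.250 ± 0.188 CPM in WT and 0.418 ± 0.164 CPM in the KO-labelled libraries (edgeR adjusted p = 0.450). Cst3, cystatin C, the most abundant, had 560, 556 and 594 CPM in WT and 514, 532 and 562 CPM in the KO-labelled libraries. Of 13 sorting and activation genes, among them the mannose 6-phosphate receptors M6pr and Igf2r and the protease legumain (Lgmn), 0 were called (edgeR; 1 higher at an unadjusted p under 0.05, 0 by DESeq2 and 0 by limma-voom), with log2 changes from -0.23 to 0.28.

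Calls among other lysosomal genes came to 3.2% of acid hydrolases, 7.7% of membrane proteins and 5.9% of proton pump genes tested. Over all genes tested 7.65% were called, and nothing is read from these counts. Of 31 acid hydrolases 1 rose and 0 fell (median log2 change 0.0018). At an unadjusted p under 0.05, 6 were higher and 2 lower, DESeq2 called 3, and without the library labelled Hsp20 KO replicate 1 edgeR called 3 higher and 1 lower. Sgsh, which removes sulfate from heparan sulfate, had 29.9 ± 3.22 CPM in WT and 40.6 ± 2.44 CPM in the KO-labelled libraries (edgeR adjusted p = 0.0404). Of 13 membrane proteins 1 rose and 0 fell (median 0.029; at an unadjusted p under 0.05, 3 were higher and 2 lower, and DESeq2 called 1). Without the library labelled Hsp20 KO replicate 1, edgeR called 1 higher (Npc1) and 1 lower (Cd63). Npc1, the exporter of cholesterol from lysosomes, had 55.4 ± 1.95 and 71.97 ± 1.32 CPM (edgeR adjusted p = 0.0226). Of 17 proton pump genes 1 rose and 0 fell (median 0.067; at an unadjusted p under 0.05, 2 were higher and 0 lower, and DESeq2 called 1). Atp6v1g1, a stalk subunit, had 59.99 ± 7.05 and 91.3 ± 13.5 CPM (edgeR adjusted p = 0.0378).

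Each of these 3 calls ended without WT replicate 2 (adjusted p = 0.112, 0.0995 and 0.101 for Sgsh, Npc1 and Atp6v1g1) or 3 (0.136, 0.115 and 0.116) and with the replicate block (0.0698, 0.0686 and 0.0853). Without WT replicate 1 those of Sgsh and Atp6v1g1 ended (0.0624 and 0.0907). Without the library labelled Hsp20 KO replicate 2, those of Sgsh and Npc1 ended (0.0912 and 0.0529), without replicate 3 those of Sgsh and Atp6v1g1 (0.0745 and 0.0885), and without replicate 1 that of Atp6v1g1 (0.0605). The call of Npc1 held without WT replicate 1 (0.0426) and without the KO-labelled replicate 1 (0.0262) or 3 (0.0472).

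**Figure D5:**
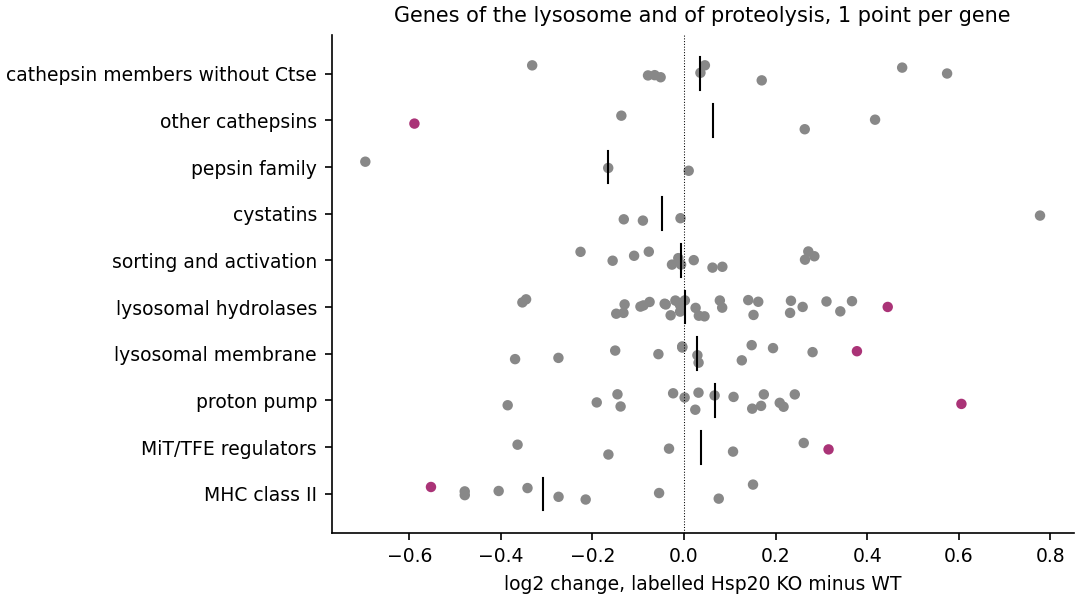
Log2 change of each tested gene, libraries labelled Hsp20 KO minus WT, for the 9 members other than Ctse and for 9 lists of protease and lysosome genes, with medians as black lines and calls (edgeR adjusted p under 0.05) in magenta. Medians lie between -0.17 and 0.067 except for MHC class II, at -0.31.

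Cathepsin S trims the invariant chain of MHC class II. Of 10 genes of class II presentation, 1 fell and 0 rose, with log2 changes from -0.55 to 0.15, a median of -0.31 and 2 of 10 positive (Ciita and Ifi30), and 5 had an unadjusted p under 0.05, all lower (DESeq2 called 4 and limma-voom 1). H2-Ab1, a class II beta chain, fell from 637 ± 38.4 to 435 ± 56.3 CPM (edgeR adjusted p = 0.0417), a call that ended without any WT library, without the KO-labelled replicate 2 or 3 and with the replicate block (adjusted p from 0.0526 to 0.164). Cd74, the invariant chain itself, had 1720, 1884 and 2000.1 CPM in WT and 1278, 1691 and 1264 CPM in the KO-labelled libraries (log2 change -0.40, edgeR adjusted p = 0.16). Beside these, the log2 change of Ctss was -0.079.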

How the data were processed

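RNA of inguinal fat from 6 mice was sequenced. The values the authors deposited are raw read counts, whole numbers with no scaling, in a column for each mouse. Tools listed in the submitters' processing notes are TopHat, DESeq, bcl2fastq and CASAVA 1.8, with mm10 and GRCm38 as builds. Neither the read counter nor its annotation and strand are given there. Columns were matched to mice by sample names. Symbols came from RefSeq GRCm38.p6 for 24334 of 24415 IDs, and the other 81 IDs held 1.30% to 5.74% of a library. Transcript lengths came from GENCODE transcripts paired with RefSeq.

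Genes were tested with edgeR 4.0.16 (R 4.3.3) after filterByExpr (minimum count 10, minimum total 15), TMM, quasi-likelihood F test, genotype as the only term, Benjamini-Hochberg adjustment over 15994 genes and a threshold of 0.05. The SE is the one implied by F. Log2 CPM used a prior count of 2. Tried beside it were limma-voom (limma 3.58.1), DESeq2 1.42.0, its size factors within edgeR, upper quartile scaling, 2 other filters, a replicate block and the loss of each library in turn. An alternative transcript length was added after seeing the data. The test was tried on simulated data.

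The members and lists were chosen with earlier results of these data known. Named genes were the members, Hspb6, up to 4 called genes per list, up to 3 markers per list and up to 5 genes most like a member among those with a mean of at least 1 CPM; other genes (further markers such as Atp4b, Atp4a, Cpt1b, Elovl3, Mmp9, Hdc, Nkg7 and Klrb1c, the neighbours of Ctse, Napsa, the beta-secretases, partners of Ctsa, MiT/TFE factors, receptors, Cst3, Cst6, Cd74 and Fdft1) were chosen after their values were seen. Libraries of a group differed beyond sampling noise (the lowest chi-square of a pair, divided by its degrees of freedom, was 17.0).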

Additional observations from a re-analysis of the deposited data

How the results depend on the processing

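As a description of members chosen with these values known, Ctse had log2 changes from 4.19 to 4.49 over the 13 alternatives. The number of members past the threshold was 2 higher (Ctse and Ctsd) and 1 lower (Ctsc) with the DESeq2 test, and 1 to 2 higher and 0 to 1 lower without single libraries, the 2 and 1 coming without the library labelled Hsp20 KO replicate 1. Changes near 0 turned sign when 1 library was left out: over these fits Ctsa ran from -0.028 (no WT replicate 1) to 0.099, Ctsz from -0.040 (no WT replicate 1) to 0.084, Ctss from -0.18 to 0.060 (no KO-labelled replicate 3), and Ctsk from -0.29 to 0.026 (no WT replicate 2) and 0.087 (no KO-labelled replicate 2). Over all genes, 676 were called higher and 547 lower, against 1135 and 1024 with DESeq2, 226 and 169 with the replicate block, and 75 to 941 and 53 to 730 without single libraries. Of the genes in the 9 protease and lysosome lists 4 were called higher and 2 lower, against 0 and 0 with the replicate block. With DESeq2 6 were called higher and 6 lower, and without single libraries 0 to 4 higher and 0 to 4 lower. The replicate numbers are not stated to pair mice, and same-numbered libraries did not deviate together (r of -0.038, 0.092 and -0.096), so the block is only an alternative. Under it the log2 change of Ctse was 4.31. With the union of exons as length, the place by CPM per kilobase was 5 in WT and 6 in the KO-labelled libraries for Ctsa, 9 and 8 for Ctsh, 7 and 7 for Ctsk, 6 and 5 for Ctsl, 3 and 4 for Ctss and 4 and 3 for Ctsz, and 9 for Ctsc in the KO-labelled libraries, while Ctsd, Ctsb and Ctse kept places 1, 2 and 10. Only the length was changed between these orders, and the CPM values were the same. With 14078936 counts in the smallest library, genes under about 1 CPM rest on few reads.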
